A study of Caenorhabditis elegans with 4 samples.

Results

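The genes described are 10 that encode structural parts of the basement membrane of the nematode Caenorhabditis elegans, or an enzyme that such parts need: the laminin chains lam-1, lam-2, lam-3 and epi-1, the type IV collagen chains emb-9 and let-2, the lysyl hydroxylase let-268, the nidogen nid-1, the perlecan unc-52 and the type XVIII collagen cle-1. They were taken by name from count tables that list 46904 genes each, and all 10 were found and passed the filter on low counts. The names were selected on results of the same comparison, that is, with the fold changes between these libraries already known, so the differences of these 10 genes between the groups are given as a description. Where the result of the fit across all genes is given for one of them, it carries no weight as a test. RNA came from whole wild-type hermaphrodites of the Bristol N2 strain, about 200 worms a group. The control group was fed OP50, an Escherichia coli strain used as standard laboratory food, and the second group was fed OP50 + MH-1, where MH-1 stands for Lactiplantibacillus sp. MH-1, a lactic acid bacterium. There were 2 libraries of each. The labels disagree on the treatment: 1 text has worms aged 4 days with 1 day of feeding, another has worms aged 1 day with 2 days of culture, and the texts also differ on whether MH-1 was given alone or with OP50.

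The direction of every difference rests on the sample titles. In all 4 tables the name of the count column points to the other feeding group. The groups of libraries are therefore called OP50-titled and MH-1-titled, the second being those whose treatment label reads OP50 + MH-1. Single libraries are named by the group of their title and the replicate number, such as OP50 replicate 1. These names, too, rest on the titles alone. With the column names as the guide, each "higher" would read "lower" at the same size. Total counts lay between 15771890 and 21572225 per library. The labels do not say whether the 2 libraries of a group are separate cultures. A p-value here therefore reflects the spread among these libraries alone, and that spread may be technical. Whole worms were used, and in such bulk RNA more cells of a type and more RNA per cell cannot be told apart.

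A basement membrane is a thin sheet of extracellular matrix that underlies epithelia and surrounds muscle, the pharynx and the gonad. Laminins, each assembled from an alpha, a beta and a gamma chain, form a polymer at the cell surface. Type IV collagen forms a second, covalently cross-linked network, and nidogen and perlecan connect with these networks. Cells hold on to the sheet through receptors such as integrins and dystroglycan. In the worm, loss of laminin or type IV collagen disrupts embryonic tissues, and perlecan anchors the body wall muscle.

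Among the 10 genes, all laminin chains were higher in both MH-1-titled libraries than in both OP50-titled ones, while the chains of type IV collagen lay close together in all 4 libraries. The largest ratio between the groups was that of let-268, at 3.18-fold, followed by the laminin alpha chain lam-3 at 2.50-fold and the beta chain lam-1 at 1.82-fold. The smallest was that of cle-1, at 1.02-fold. In the fit across all 12640 tested genes, 4 of the 10 (lam-1, lam-2, lam-3 and let-268) passed the threshold, an adjusted p below 0.05 by the quasi-likelihood test of edgeR with Benjamini-Hochberg adjustment. All 4 were higher. Of all tested genes, 2.15% passed in either direction and 1.82% as higher. For 8 of the 10 genes the groups did not overlap, with the MH-1-titled libraries on top, as was so for 24.4% of all tested genes. Because the names were chosen with this comparison known, nothing is read from either count. The median log2 fold change of the 10 genes was 0.62, beside 0.003 over all tested genes. The count of 4 became 7 with OP50 replicate 1 left out, and 3 with OP50 + MH-1 replicate 2 left out.

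**Figure D1:**
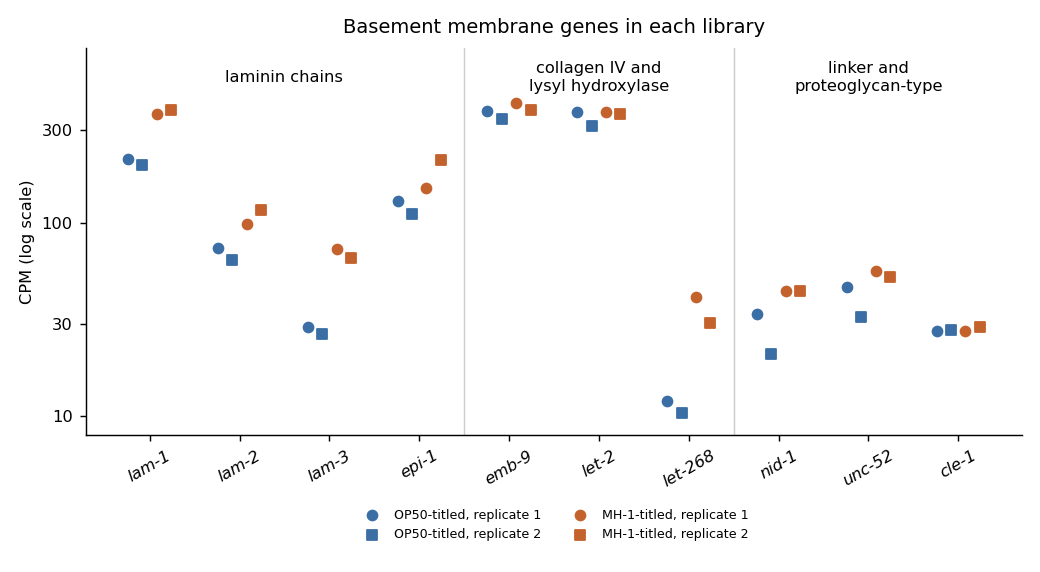
CPM (log axis) of the 10 basement membrane genes in the 4 libraries, 1 point for each library, coloured by sample title and shaped by replicate number. lam-1, lam-3 and let-268 show a wide gap between the groups, whereas emb-9, let-2 and cle-1 have their 4 points close together.

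The laminin beta chain is encoded by lam-1 alone and the gamma chain by lam-2 alone, so both are part of every worm laminin. lam-1 (WBGene00002247, ce11 chromosome IV, 5173280 to 5183708, plus strand, 11 exon blocks) stood at 213 and 198 CPM in the OP50-titled libraries, where CPM are read counts relative to the library size after TMM scaling. In the MH-1-titled libraries it stood at 364 and 383 CPM. The gap between the groups was far wider than that between replicates, which differed by 1.08-fold and 1.05-fold. The log2 fold change was 0.86 ± 0.08 (SE). lam-2 (WBGene00016913, chromosome X, 7143918 to 7151235, minus strand, 12 exon blocks) had 73.6 and 63.8 CPM in the first pair of libraries, against 98.9 and 116 CPM in the second. The groups were again apart, with a log2 fold change of 0.65 ± 0.11 (SE). As a description only, its adjusted p was above the threshold with limma-voom and without OP50 + MH-1 replicate 2.

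The alpha chains differ between the laminin types of the worm, and the one with fewer reads per base, lam-3, showed the wider gap. lam-3 (WBGene00002248, chromosome I, 10608466 to 10621433, plus strand, 13 exon blocks), an alpha chain known from the pharynx and other tissues, had 28.8 and 26.5 CPM when OP50-titled and 73.1 and 65.5 CPM when MH-1-titled. Its log2 fold change was 1.32 ± 0.10 (SE), and the 2 replicates of each group lay close together. The alpha chain epi-1 (WBGene00001328, chromosome IV, 10666827 to 10679289, plus strand, 16 exon blocks), needed for the organisation of epithelia, had 129 and 110 CPM in the OP50-titled pair, and 151 and 210 CPM in the other. The groups did not overlap, but OP50 + MH-1 replicate 1 was nearer to the OP50-titled libraries than to its own replicate. The log2 fold change of epi-1, 0.59 ± 0.16 (SE), was 0.82 without that library and 0.34 without OP50 + MH-1 replicate 2.

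The chains of type IV collagen varied little between libraries. emb-9 (WBGene00001263, chromosome III, 9336881 to 9344447, minus strand, 12 exon blocks), the alpha1(IV) chain, stood at 375 and 344 CPM in the OP50-titled pair and at 412 and 381 CPM in the other. let-2 (WBGene00002280, chromosome X, 16380597 to 16389371, minus strand, 19 exon blocks), the alpha2(IV) chain, stood at 372 and 316 CPM, and at 373 and 364 CPM. For emb-9 the higher OP50-titled library came just under the lower MH-1-titled one, and for let-2 the groups overlapped. The log2 fold changes were 0.14 ± 0.09 for emb-9 and 0.10 ± 0.10 for let-2 (SE). For let-2 the sign depended on a single library, at -0.02 without OP50 replicate 2.

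let-268 (WBGene00002497, chromosome II, 10033309 to 10039980, minus strand, 11 exon blocks) encodes the procollagen lysyl hydroxylase, which modifies lysines of type IV collagen in the endoplasmic reticulum and is needed for its secretion. It stood at 12.0 and 10.5 CPM in the OP50-titled pair, and at 41.3 and 30.4 CPM in the MH-1-titled one. The MH-1-titled replicates differed by 1.36-fold, less than the gap between the groups. Its log2 fold change was 1.67 ± 0.18 (SE), beside 0.14 and 0.10 for its substrate chains emb-9 and let-2.

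Of the linking and proteoglycan-type proteins, nid-1 and unc-52 lay higher and cle-1 level, with a wide spread between the OP50-titled replicates in the first 2. nid-1 (WBGene00003738, chromosome V, 12910113 to 12917198, plus strand, 16 exon blocks), which encodes nidogen, had 33.6 and 20.9 CPM in the OP50-titled pair, and 44.2 CPM in both of the others. unc-52 (WBGene00006787, chromosome II, 14647325 to 14684456, minus strand, 47 exon blocks, 17 transcripts in the tables) had 46.8 and 32.5 CPM, and 56.1 and 52.3 CPM. In both genes OP50 replicate 2 was the lowest library and the groups did not overlap. The log2 fold change was 0.70 ± 0.20 for nid-1 and 0.45 ± 0.17 for unc-52 (SE), and without OP50 replicate 1 it was 1.08 and 0.73. Without OP50 replicate 2 it was 0.39 for nid-1 and 0.21 for unc-52. cle-1 (WBGene00000527, chromosome I, 8705670 to 8724279, minus strand, 25 exon blocks), a type XVIII collagen of the basement membrane with a role in neuronal migration, had 27.6 and 28.0 CPM, and 27.5 and 29.1 CPM. The groups overlapped, and the log2 fold change of 0.03 ± 0.10 (SE) turned to -0.02 without OP50 + MH-1 replicate 2. In the deposited coordinates cle-1 shares 156 exonic bases with cdk-8 on the opposite strand. cdk-8 had between 2436 and 3391 reads in a library and cle-1 between 444 and 631, and no source used here states the strand setting of the counting, so part of the reads of cle-1 could belong to cdk-8. let-2 and unc-52 share 14 and 3 exonic bases with other genes, and the remaining members share none.

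Scaled to gene length, the levels of the 10 genes spanned 20.5-fold. In RPKM, here CPM divided by the gene length in kilobases, and averaged over the 4 libraries, emb-9 led at 67.3, followed by let-2 at 60.9 and lam-1 at 48.9. Between lam-1 and lam-2, the next in order at 14.8, the ranges over the 4 libraries did not overlap. Every other pair of neighbours in the order overlapped: epi-1 (13.3), let-268 (9.39), nid-1 (7.15), cle-1 (6.41), lam-3 (5.13) and unc-52 (3.29 RPKM). The ranks of all 10 genes by this mean over both groups were the same under DESeq2 size factors, under total counts alone and without any single library. The order within a group differed. In the OP50-titled pair cle-1 (6.35 RPKM) was above let-268 (4.48) and lam-3 (2.93). In the MH-1-titled pair cle-1 (6.47 RPKM) was below let-268 (14.3) and lam-3 (7.33). emb-9 was above 83.0% of all tested genes on this scale and unc-52 above 29.9%.

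Ratios within a library do not depend on how the libraries were scaled to each other, and they show which basement membrane transcripts differed in proportion. Reads per base of the 4 laminin chains together, divided by those of emb-9 and let-2 together, gave 0.482 and 0.493 for the OP50-titled pair, and 0.724 and 0.845 for the MH-1-titled one. The mean was 0.487 ± 0.007 against 0.785 ± 0.086 (SD, n = 2), with no overlap. The share of lam-3 in the laminin alpha chains was 21.0% and 22.2% for the OP50-titled pair, and 36.5% and 27.1% for the other, again with no overlap but with a wide spread in the second group. let-268 relative to emb-9 was 0.070 ± 0.003 and 0.201 ± 0.032 (SD, n = 2; OP50-titled first). By contrast, the ratio of emb-9 to let-2 was 1.09 ± 0.060 and 1.12 ± 0.043 (SD, n = 2), and the groups overlapped. lam-1 had 3.02 ± 0.15 times the reads per base of lam-2 in the OP50-titled libraries and 3.52 ± 0.28 times in the others (SD, n = 2). With 2 libraries against 2, an exact two-sided permutation test cannot give a p under 0.333, and no test of these differences in proportion was run. The ratios of laminin to collagen and of let-268 to emb-9 were added after the values were seen.

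**Figure D2:**
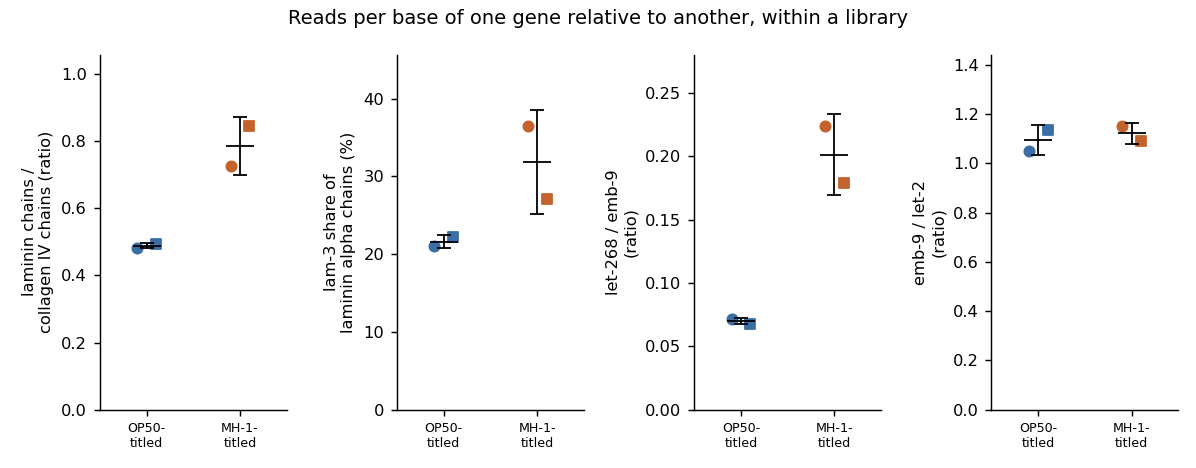
Reads per base of one gene or gene group relative to another within each library (4 panels, linear axes from 0), with 1 point for each library and the mean ± SD of the 2 libraries of each group. The first 3 ratios are higher in both MH-1-titled libraries, and the ratio of emb-9 to let-2 is 1.09 and 1.12 on average in the 2 groups.

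Other genes that act at the basement membrane, at its receptors or in the synthesis of matrix parts inside the cell were taken from a list. It held 70 names in 7 roles, of which 69 were found and 64 tested. Some of them, such as those of collagen folding and heparan sulfate synthesis, are not particular to the basement membrane. Of these, 7 rose in the MH-1-titled libraries and none fell, which is 7 of 64 beside the 1.82% of all tested genes that were called as higher and the 0.332% called as lower. The list was chosen with earlier results of these data known. Its counts, signs and adjusted p-values are therefore a description and not an independent test. Of the 64, 28 had an unadjusted p under 0.05. The share of all tested genes under that cut was not worked out. Nothing is therefore read from this count, or from those given below by role and by marker list. The log2 fold change was above 0 in 58 of the 64 genes, where it was above 0 in 50.4% of all tested genes, and the median over the 64 was 0.37. The number called was 13 with OP50 replicate 1 left out, and 2 with OP50 + MH-1 replicate 1 left out. By tool it was 12 with the DESeq2 test and 5 with limma-voom, and no fall was called by either.

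Among 11 tested receptors and cell-surface proteoglycans, 4 rose and none fell. The discoidin domain receptor ddr-2, a receptor tyrosine kinase of a family that binds collagen, went from 2.13 and 1.87 CPM when OP50-titled to 9.54 and 6.51 CPM when MH-1-titled, which is 3.99-fold higher (adjusted p = 0.0274). let-805, which encodes myotactin, a transmembrane protein that keeps muscle attached to the epidermis, went from 38.8 and 37.4 CPM to 70.8 and 74.4 CPM (log2 fold change 0.93 ± 0.09, adjusted p = 0.00936). These gaps were wider than the spread within either group, although ddr-2 lost its call without OP50 + MH-1 replicate 1 (adjusted p = 0.0888) and with limma-voom (adjusted p = 0.0577). The alpha integrin pat-2, which pairs with the beta integrin pat-3 in muscle attachments, had 20.1 and 19.3 CPM and then 32.8 and 34.0 CPM (log2 fold change 0.76 ± 0.11, adjusted p = 0.0227). The syndecan sdn-1, a heparan sulfate proteoglycan of the cell surface, had 44.1 and 42.6 CPM and then 63.3 and 65.3 CPM (log2 fold change 0.57 ± 0.09, adjusted p = 0.0274). Both calls were narrow. For pat-2 the adjusted p became 0.0589 when OP50 + MH-1 replicate 1 was left out and 0.0513 when its replicate 2 was. For sdn-1 these were 0.0550 and 0.0547, and leaving out OP50 replicate 2 gave 0.0525.

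Inside the cell, integrins are tied to actin by adhesion proteins, of which 2 of 10 rose and none fell. unc-97, the worm PINCH protein of muscle attachments, went from 16.8 and 14.3 to 32.1 and 26.4 CPM (log2 fold change 0.91 ± 0.15, adjusted p = 0.0339). tln-1, which encodes talin, the link from integrin to actin, went from 97.5 and 87.7 to 141 and 133 CPM (log2 fold change 0.57 ± 0.08, adjusted p = 0.0257). Of 7 tested genes of the dystrophin complex, 1 rose, dys-1 itself, the worm dystrophin, from 61.6 and 62.3 to 88.1 and 87.2 CPM (log2 fold change 0.50 ± 0.08, adjusted p = 0.0274). All of these calls ended when OP50 + MH-1 replicate 1 was left out, with adjusted p-values of 0.120 for unc-97, 0.0584 for tln-1 and 0.0625 for dys-1, and with limma-voom that of unc-97 was 0.0562.

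No gene passed in the other 4 roles. Among 10 further matrix proteins, 5 of which had an unadjusted p under 0.05, those with the most reads were ost-1, the worm SPARC, whose log2 fold change was 0.39 ± 0.14 (SE; adjusted p = 0.268), and mig-6, the worm papilin, with a log2 fold change of 0.33 ± 0.07 (adjusted p = 0.0868). Among 10 matrix proteases and inhibitors, 1 with an unadjusted p under 0.05, the log2 fold change for the metalloprotease zmp-4 was 0.19 ± 0.11 (adjusted p = 0.509) and for the ADAMTS-type protease adt-2 it was 0.20 ± 0.17 (adjusted p = 0.673). Among 8 genes of collagen folding and secretion, 4 with an unadjusted p under 0.05, the log2 fold change for the protein disulfide isomerase pdi-2, a subunit of the worm's prolyl 4-hydroxylases, was 0.37 ± 0.10 (adjusted p = 0.136) and for its relative pdi-1 it was -0.03 ± 0.10 (adjusted p = 0.930). Of 8 heparan sulfate enzymes, 2 with an unadjusted p under 0.05, the log2 fold change for the epimerase hse-5 was 0.01 ± 0.09 (adjusted p = 0.984) and for the sulfotransferase hst-1 it was -0.03 ± 0.11 (adjusted p = 0.940). For pdi-1, hse-5 and hst-1 the sign turned under other scalings or without single libraries. In these 4 roles limma-voom called no gene. The DESeq2 test called no heparan sulfate or protease gene either, but it did call agr-1, pxn-2 and unc-6 among the matrix proteins and dpy-18 and pdi-2 among the collagen folding genes. Of these, agr-1, pxn-2, unc-6 and dpy-18 were named after their values were seen. So was phy-2, a catalytic subunit of the prolyl 4-hydroxylases, which had the highest log2 fold change of the collagen folding genes, at 1.71 ± 0.43 (SE; adjusted p = 0.125). It stood at 22.9 and 12.2 CPM in the OP50-titled pair and at 80.8 and 34.4 CPM in the MH-1-titled one, so the groups did not overlap but the replicates of each lay far apart. phy-2 was called with no filter on low counts, and also when any library other than OP50 + MH-1 replicate 1 was left out. For mig-6 the adjusted p was 0.0367 with total counts only, and with no filter ost-1, mig-6 and pdi-2 were called.

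**Figure D3:**
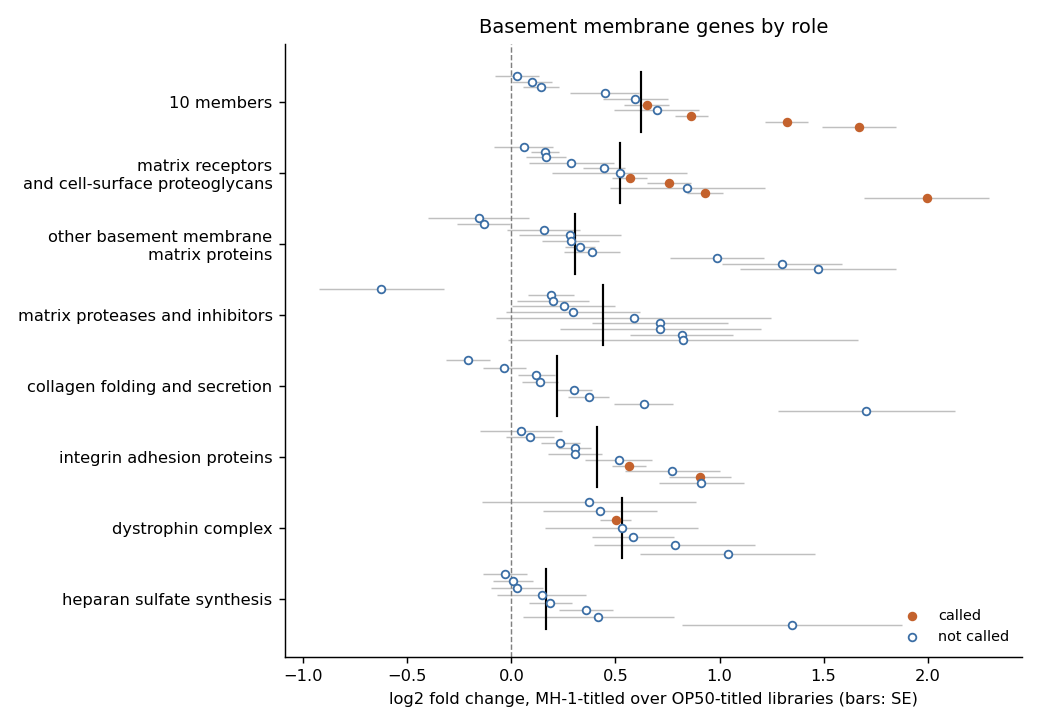
Log2 fold change (MH-1-titled libraries over the OP50-titled ones) ± SE of the 10 members and of the 64 other tested basement membrane genes by role, with called genes filled and a black line at each median. The filled points among the 64 lie in the receptor, integrin adhesion and dystrophin rows, and all are above 0.

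The deposited tables carry a gene ontology term, basement membrane, for 26 genes, all tested, and it names 9 of the 10 members (let-268 is the exception). Of the 17 annotated genes that are not members, tln-1 was the 1 called, beside 2.15% of all tested genes. In 16 of them the log2 fold change was above 0, beside 50.4% of all tested genes, and the median over the 17 was 0.33. All but cdh-3, elks-1 and mig-18 among them also stand in the list of 70 names, so these counts largely repeat those given above. This list by annotation was added after the tables were read.

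Markers of other tissues and stages were taken in 6 lists. In the main edgeR fit, those of larval molting epidermis, embryo and body wall muscle held called genes. Those of somatic gonad, germline and adult intestine held none. Of all tested genes, 1.82% were called as higher and 0.332% as lower. Of 13 tested markers of larval molting epidermis, 6 rose (noah-1, noah-2, mlt-11, dpy-2, dpy-7 and ptr-4) and none fell. The log2 fold change was above 0 in 12 of the 13 and below 0 in 1, nas-37, at -0.23. Among those not called, mlt-10 and nas-36 stood at 0.17 and 0.45, and mlt-8 and dpy-3 at 2.39 and 3.13. Levels of the listed genes summed to between 66.8 and 88.99 CPM in the OP50-titled libraries, and between 247 and 410.3 CPM in the others. bli-1 was at 0 in all 4 libraries. The number called was 8 with the DESeq2 test, 3 with limma-voom and 0 with robust dispersion in edgeR. It was 4 without OP50 + MH-1 replicate 1, 9 without its replicate 2 and 8 without either OP50 replicate. Of 17 tested embryo markers, 3 were called as higher (pha-4, hch-1 and sym-1) and none as lower. The log2 fold change was above 0 in 13 of the 17 and below 0 in 4. Their summed levels were 499 and 477 CPM against 626 and 631 CPM, and no embryo marker was at 0 in all libraries. The sum did not rise evenly across the list. The abundant pal-1, lin-26 and die-1, not called, averaged 163, 136 and 64.5 CPM when OP50-titled, against 154, 146 and 66.5 CPM. The called pha-4, hch-1 and sym-1 averaged 13.7, 3.51 and 27.1 CPM, against 32.5, 34.0 and 101 CPM. DESeq2 and limma-voom called these 3 too, whereas robust dispersion left pha-4 alone, and sym-1 was not called without either OP50 + MH-1 replicate. Body wall muscle, a main source of type IV collagen in the worm, had 1 called marker of 12 (pat-10, higher) and 6 with an unadjusted p under 0.05. The log2 fold change was above 0 in 9 of the 12 and below 0 in 3. Their summed levels were 2560.2 and 2347 CPM against 2647 and 2894 CPM. The call of pat-10 was lost with limma-voom, with DESeq2 size factors and with any single library left out. The DESeq2 test called act-4 and pat-10, 5 muscle markers were called with no filter on low counts, and mup-2 was called without OP50 replicate 1. The 4 somatic gonad markers were not called in the main edgeR fit, by DESeq2 or by limma-voom, with 1 at an unadjusted p under 0.05. With no filter on low counts, edgeR called lim-7 among them as higher. They summed to between 25.9 and 28.0 CPM for the OP50-titled pair and between 31.9 and 34.6 CPM for the other. All 9 germline markers had a log2 fold change below 0, at a median of -0.14, with summed levels of 6541 and 6168 CPM against 5342 and 5627 CPM. None was called in the main edgeR fit or by limma-voom, 2 had an unadjusted p under 0.05, and DESeq2 called 1, mex-5, as lower. With no filter on low counts, edgeR called 3 germline markers as lower (cgh-1, gld-1 and mex-5). The 6 vitellogenins, which mark the adult hermaphrodite intestine, were abundant in every library, at summed levels between 41691 and 70217 CPM. All 6 had a log2 fold change below 0, at a median of -0.11, and their groups overlapped. None was called by edgeR, DESeq2 or limma-voom or had an unadjusted p under 0.05. The part of embryo, molting or muscle content in the levels of the laminins, let-268 or the receptors was not tested.

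**Figure D4:**
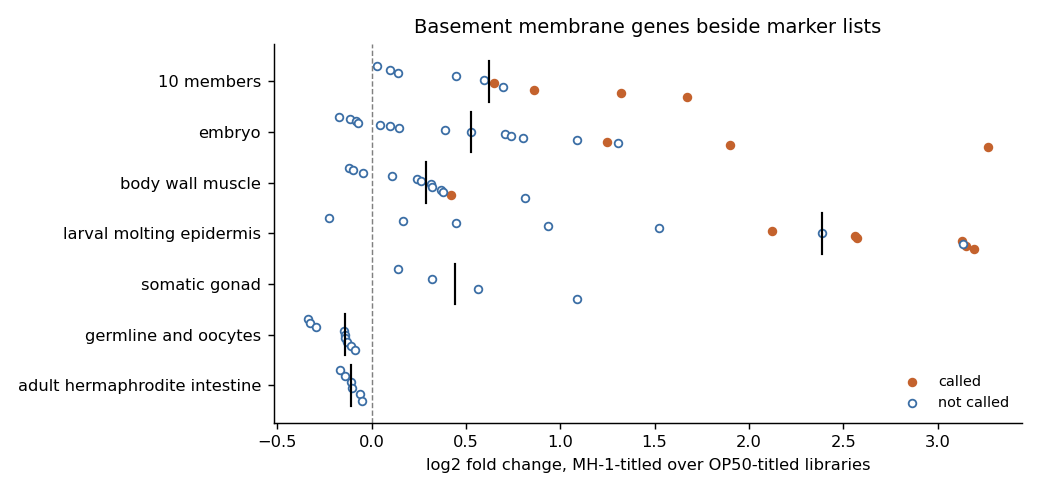
Log2 fold change (MH-1-titled libraries over the OP50-titled ones) of the 10 basement membrane genes and of 6 marker lists, 1 point for each tested gene, with called genes filled and a black line at each median. Molting and embryo markers reach further to the right than the basement membrane genes. Germline markers and vitellogenins all lie left of 0, at medians of -0.14 and -0.11.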

How the data were processed

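Poly(A) RNA of whole worms was sequenced with a stranded kit, per the labels' protocols. The deposited values are raw read counts per gene, per the file headers and the values. The submitters' processing notes name the build ce11 (WBcel235) and, among other tools, featureCounts 2.0.1 and STAR 2.7.10a. The order of the steps, the strand setting and the treatment of reads with several matches are not stated there. Lengths and coordinates come from the deposited tables.

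The counts entered a single edgeR model (version 4.0.16, R 4.3.3). Genes were kept by filterByExpr at a minimum count of 10 and a minimum total of 15, libraries were scaled by TMM, and the group was the only term of the quasi-likelihood test. Adjustment by Benjamini-Hochberg covered all 12640 genes kept. Called means an adjusted p below 0.05. The SE is the log2 fold change divided by the square root of F. The biological coefficient of variation was 0.135. In each library 3 counts equal between 0.138 and 0.186 CPM, a floor for counting error only. No 2 libraries matched within sampling noise, the lowest chi-square between a pair being 10.1 per degree of freedom.

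The 10 members, the list of 70 names, the marker lists and the rule for named genes were chosen with earlier results of these data known. Named are the members, every called gene of the list, and in roles with none called the 2 tested genes of highest mean CPM. tmem-39 was matched by its gene ID, and phy-4.1 and the marker elt-5 were not matched. On data simulated for this comparison (12583 genes tested) the fit recovered 84% of 2-fold and 100% of 4-fold changes, and 3.67% of its calls were false. The simulation gave every gene the same dispersion and changed only genes above a minimum expected count. These shares therefore do not hold for genes with a wider spread between replicates. The molting marker dpy-3, for example, was 8.78-fold higher but was not called in the main edgeR fit (adjusted p = 0.0540). Alternatives covered scaling, filter, tool (DESeq2 1.42.0, limma 3.58.1), robust dispersion, a replicate block and each library left out. Sequences were not used here. Figures were drawn with matplotlib 3.10.9.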

Additional observations from a re-analysis of the deposited data

How the results depend on the processing

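The median log2 fold change of the 10 genes lay between 0.44 and 0.74 over all alternatives run. Under the other scalings, filters and tools it lay between 0.61 and 0.67, beside 0.62 in the main fit. These shifts were smaller than the spread between replicates (SD 0.19). With 1 of 2 libraries of a group left out, the shift could hardly exceed that spread by construction, so nothing is read from its size there. The number of all genes called, 272, was 1112 with no filter on low counts, 464 with the DESeq2 test, 162 with limma-voom and 559 with a replicate block, and between 119 and 488 when 1 library was left out. Of the 10 members, whose calls are a description since they were chosen on this comparison, 4 were called, 7 with no filter, and between 3 and 7 without 1 library. Of the 64 other genes, 7 were called, 11 with total counts only, 21 with no filter, 12 with the DESeq2 test and 17 with the replicate block, and between 2 and 13 without 1 library. The cause of these shifts was not tested. The groups share replicate numbers, but no label says what the numbers mean. Differences between replicates 1 and 2 correlated at 0.21 across genes between the groups, which with 2 pairs does not establish a pairing. With the block nid-1 joined the called members, and 4 muscle markers were called. The genes that joined the called other genes were agr-1, dpy-18, ina-1, mig-6, ost-1, pat-6, pdi-2, phy-2, pxn-2 and unc-6. Signs turned for log2 fold changes near 0. Leaving out 1 library in turn gave -0.017 to 0.22 for let-2, -0.016 to 0.072 for cle-1, -0.14 to 0.071 for pdi-1, -0.095 to 0.11 for hse-5 and -0.14 to 0.075 for hst-1. With total counts only, pdi-1 stood at 0.012 and hst-1 at 0.011, and hse-5 stood at -0.0032 with DESeq2 size factors and -0.0033 with the DESeq2 test. With reads not divided by gene length, the share of lam-3 in the alpha chains was 18.8% in the OP50-titled libraries and the ratio of emb-9 to let-2 was 1.07 in the MH-1-titled ones. When 1 library is left out its group has a single library, and the spread comes from the other group.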
